A study of Mus musculus with 47 samples.

Results

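The 5 NF-κB subunit genes of the mouse, *Rela* (p65), *Relb*, *Rel* (c-Rel), *Nfkb1* (p105, processed to p50) and *Nfkb2* (p100, processed to p52), were followed through 12 RNA-seq libraries of macrophages. They were taken by gene symbol from every expression table of the series, and all 5 were found in all 7 tables, as 5 of 51912 genes in the tables of bone marrow-derived macrophages (BMDMs) and 5 of 22599, 22863, 23772 and 12771 genes in the tables of Raw264.7 cells. All 5 passed the filter on low values in all 12 comparisons below. The series has 47 samples, and the 35 that hold no RNA-seq were not analysed here.

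NF-κB is a family of transcription factors that act as pairs of subunits. In resting cells the pairs are held in the cytoplasm by IκB proteins. LPS, from the outer membrane of Gram-negative bacteria, signals through Toll-like receptor 4 to the IKK kinases, which mark IκBα for destruction and free p65 and c-Rel bound to p50 to enter the nucleus (the canonical pathway). RelB and p52 are the usual pair of the slower non-canonical pathway, in which the kinase NIK drives the cutting of p100. Of the genes studied here, *Nfkb1*, *Nfkb2* and *Rel* are themselves known targets of NF-κB, and p65 is also regulated by acetylation of its lysines.

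The BMDMs were grown from C57BL/6 bone marrow with 20 ng/ml M-CSF. WT mice were Zmynd8 fl/fl littermates without Cre, and Zmynd8 cKO mice were Zmynd8 fl/fl with Cre driven from Lyz2, which removes exons 6 and 7 in myeloid cells, neutrophils included, so that all BMDMs carried the floxed allele. BMDMs of each genotype were left untreated (M0), or given LPS at 100 ng/ml (M1) or IL-4 at 20 ng/ml (M2) over 6 h. The other 6 libraries carry the label Raw264.7, a macrophage-like line from a male mouse. In the p65 lines, *Rela* was targeted with a CRISPR guide (p65 KO), and the knockout cells were given back WT p65 or p65 with a lysine changed to arginine (K122R). All 3 were treated with LPS. In the Zmynd8 lines, *Zmynd8* was knocked out (Zmynd8 KO) and the cells were given back Zmynd8 (WT Zmynd8) or its D/E-A mutant, in which the acidic residues of the disordered region were replaced by alanine, and their labels give no treatment. The study's text describes the WT Zmynd8 and D/E-A cells sequenced as treated with LPS. The LPS dose and time for Raw264.7 cells, and whether each line is 1 clone, are not given in the sources used here. The column taken as WT p65 is headed Raw, WT and LPS and does not name the knockout, so unmodified Raw264.7 cells treated with LPS cannot be told apart from rescued cells for that library.

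Each condition has 1 library, and each BMDM library mixes 3 biological replicates. No difference below therefore has a replicate check, the error bars and limits cover the counting of reads only, and a test on reads compares 2 libraries, not 2 conditions. Depth was 22597408 to 28386612 reads for BMDMs and 15127110 to 21042628 reads for Raw264.7 cells. *Arg1*, a gene known to be induced by IL-4, was at 1500.4 and 1541 CPM (reads scaled to a common library total) in the IL-4 libraries and at most at 26.5 in the other BMDMs, and *Nos2*, induced by LPS, was at 7391 and 7472 in the LPS libraries and at most at 8.74 in the others. *Zmynd8* was at 87.1, 79.0 and 128 CPM in WT BMDMs (untreated, LPS, IL-4) and at 81.5, 86.8 and 151 in cKO BMDMs. Its gene total was thus not lower in 2 of the 3 cKO libraries, and it checks little, since most of its exons lie outside the deletion. In the Zmynd8 lines it was at 5.75 (KO, rounded from a value that was not whole reads), 26.4 (WT Zmynd8) and 27.7 (D/E-A), and in the p65 lines at 107 (p65 KO), 117 (WT p65) and 64.2 (K122R), where the interval of K122R lay below both others. WT Zmynd8 and D/E-A were thus below all 3 p65 lines. The Zmynd8 lines went against their cell line label. All 7 neutrophil markers had at least 10 reads in each of their 3 libraries, with a summed level of 4419 to 10340 CPM, and *Xist*, the RNA of the inactive X of female cells, was at 338 to 460.2. All 4 B cell markers also had at least 10 reads in each, with a summed level of 119 to 161 CPM, against 0.57 to 1.68 in the p65 lines. The Zmynd8 lines are named here by their labels, which give bone marrow as the source of both sets of lines, and which cells these 3 libraries hold was not tested. The p65 lines had 3 to 5 neutrophil marker reads in all and *Xist* at 0 to 3 reads. In the IL-4 BMDMs the same neutrophil list summed to 382 and 514, against 2.29 to 4.22 in the other BMDMs. All 10 macrophage markers had at least 10 reads in every library except the p65 lines, where *Mertk* had 2 to 4 reads.

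The sequences below show which part of *Rela* the guide targets and which codon differs in the K122R insert, because the p65 lines are named for these changes. *Rela* lies on chr19:5637440-5648131 of mm10 (GRCm38), on the + strand. The other members lie at chr7:19606217-19629438 (*Relb*, - strand), chr11:23741729-23770970 (*Rel*, - strand), chr3:135584655-135691982 (*Nfkb1*, - strand) and chr19:46304320-46312090 (*Nfkb2*, + strand). The guide matches the + strand of exon 3 of 11 at chr19:5638613-5638635, in bases 97 to 116 of the coding sequence, and has 1 exact match on that chromosome. The capitals mark the PAM.
sgP65 target: cgattccgctataaatgcgaGGG
K122R was changed in the inserted p65, not in the endogenous gene. The matching codon of mouse *Rela* lies further along, inside chr19:5639872-5639895. In the mouse sequence the capitals mark that codon, and in the primer used to make the mutant they mark the bases that differ from the mouse coding sequence.
mouse Rela codons: gggatccagtgtgtgAAGaagcga
K122R primer: ggAatccagtgtgtgaGgaagcgG
Counted from 1 at the A of the start codon, with the mouse base first and the primer base last, the differences were G351A, A365G and A372G, of which A365G lies in that codon. The primer for the start of p65, used to clone the insert, differed from mouse *Rela* at T9A and T15C among 18 bases. The species of the insert is not given in the sources used here. Whether the differences outside the K122R codon belong to the insert's own sequence, and how well its reads map to mouse *Rela*, was not tested. Gene totals do not separate reads of the insert from reads of the endogenous gene, and how far inserted p65 adds to the *Rela* counts was not tested.

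*Rela* marked the 3 p65 lines. It had 765 reads (50.6 CPM) in p65 KO, 1601 reads (102 CPM) in WT p65 and 5850 reads (351 CPM) in K122R. The knockout library was the lowest of all 12 for *Rela* and the K122R library the highest, and the 95% exact (Clopper-Pearson) intervals of the 3 did not overlap. On the deposited values, with a pseudocount of 1, *Rela* was lower in p65 KO than in WT p65 by a log2 ratio of -1.02 (limits -1.14 to -0.89), a 2.02-fold difference. It was 3.80-fold higher in K122R than in WT p65 (log2 1.92, limits 1.84 to 2.01). The K122R and knockout libraries, which stand in separately normalized tables that share WT p65, differed by a log2 ratio of 2.77 in CPM (limits 2.69 to 2.91). Transcripts of a gene cut by a CRISPR guide can still be sequenced, and a remaining read count says nothing of the protein.

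The other 4 subunits moved less between these lines. In CPM (p65 KO, WT p65, K122R), *Relb* was at 21.8, 21.6 and 37.9, *Rel* at 131, 177 and 137, *Nfkb1* at 809, 980 and 1027, and *Nfkb2* at 261, 293 and 452. *Relb* and *Nfkb2*, the genes of the non-canonical pair, were high in K122R alone, while *Rel* was highest in WT p65. In Raw264.7 cells a call needed a 1.2-fold difference in either direction, with no test. In p65 KO over WT p65, 3 of the 5 subunits were called lower and 0 higher, where 25.7% of the 19879 genes tested were called lower and 26.3% higher. Genes with a mean value near 1, about 1 read, are among those tested. Those 3 were *Rela* (above), *Rel* (log2 -0.44, limits -0.52 to -0.35) and *Nfkb1* (log2 -0.28, limits -0.31 to -0.24). *Nfkb2* (log2 -0.17) and *Relb* (log2 0.015, limits -0.21 to 0.24) were not called.

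In K122R over WT p65, 3 subunits were called higher and 0 lower, against 30.8% of 19670 genes called higher and 32.5% lower. Besides *Rela*, these were *Relb* (1.94-fold, log2 0.96, limits 0.77 to 1.15) and *Nfkb2* (1.70-fold, log2 0.77, limits 0.71 to 0.82). *Nfkb1* (log2 0.21) and *Rel* (log2 -0.23) were not called. The scaling matters here: in CPM the median of all genes fell from 0.0069 to -0.15, the higher calls went from 48.6% to 29.3% of all calls, and *Rel* passed the fold rule as lower (log2 -0.37) while the 3 higher calls stayed, at log2 ratios of 1.77, 0.79 and 0.62. In K122R over p65 KO, in CPM, 4 subunits were called higher and 0 lower (14.8% of 12424 genes higher, 36.4% lower). *Nfkb2* (log2 0.79), *Relb* (log2 0.77) and *Nfkb1* (log2 0.34) joined *Rela*, and *Rel* was at 0.063 (limits -0.024 to 0.15). In a scaling added after the data were seen, the deposited values of each table were divided by 1 constant, the value of 1 WT p65 read there. This raised these log2 ratios by about the shift of the median of all genes, from -0.14 to 0.0031. Higher calls over all genes moved from 28.9% to 48.2% of calls.

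**Figure D1:**
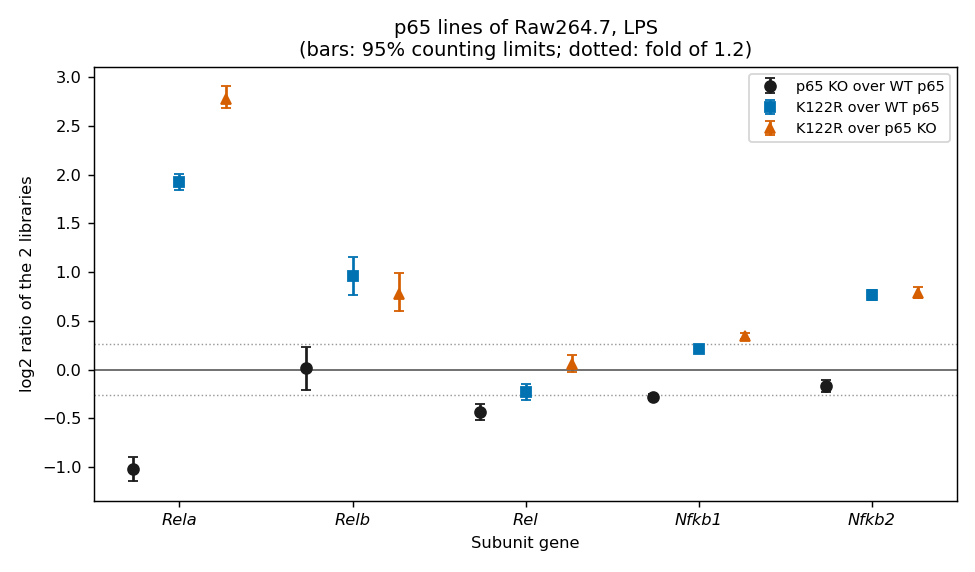
Log2 ratio of the 2 libraries (y axis) for each subunit gene (x axis) in 3 comparisons of the p65 lines, with 95% counting limits as bars and a 1.2-fold change as dotted lines. *Rela* spans from -1.02 in the knockout to 2.77 in K122R over the knockout, and *Relb* and *Nfkb2* lie above the dotted line only where K122R is in the ratio.

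The rest of the pathway was read from 6 lists with 57 genes. Of the 20 NF-κB target genes, 19 were tested between the p65 lines, and 3 were called higher and 6 lower in p65 KO over WT p65 (median log2 -0.12, against 0.0098 for all genes). *Saa3*, an acute-phase protein, went from 131 reads in WT p65 to 29 in the knockout, and *Il6*, a cytokine, from 2694 to 1213. The cytokine *Il1a* (log2 -0.74), the mitochondrial superoxide dismutase *Sod2* (log2 -0.70) and *Tnfaip3*, which encodes the feedback inhibitor A20 (log2 -0.73), were lower too, and the chemokine *Ccl2* was higher (log2 0.83). In K122R over WT p65, 10 of the target genes were called higher and 4 lower (median log2 0.34, against 0.0069 for all genes). *Saa3* (log2 2.70), the chemokine *Cxcl2* (log2 1.81), *Nos2*, the inducible nitric oxide synthase (log2 1.56), and *Sod2* (log2 0.86) were among the higher, and *Il12b*, a subunit of IL-12 and IL-23, fell from 52 to 9 reads. The acetyltransferase *Kat2a* was lower (log2 -0.92). In K122R over p65 KO, 8 target genes were called higher and 4 lower (median log2 0.15, against -0.14 for all genes), led by *Saa3* (log2 4.11), *Cxcl2* (log2 1.81), *Il6* (log2 1.68), *Sod2* (log2 1.41) and *Nos2* (log2 1.19), with *Ccl2* lower (log2 -1.40).

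Among the regulators, the 6 IκB genes had 1 call higher and 0 lower in p65 KO over WT p65, 3 higher and 0 lower in K122R over WT p65, and 0 higher and 1 lower in K122R over p65 KO. The 8 genes of the IKK complex and its kinases had 1 higher and 1 lower, 1 higher and 0 lower, and 2 higher and 1 lower in the same order. The 8 genes of the non-canonical pathway had 0 higher and 2 lower, 0 higher and 3 lower, and 1 higher and 2 lower. The 5 deubiquitinase and feedback genes had 0 higher and 2 lower, 1 higher and 1 lower, and 2 higher and 1 lower, and the 10 enzymes of p65 acetylation and deacetylation had 0 higher and 2 lower, 1 higher and 2 lower, and 2 higher and 2 lower. Over all genes 26.3% were called higher and 25.7% lower in the first comparison, 30.8% and 32.5% in the second, and 14.8% and 36.4% in the third, and nothing is read from list counts this small.

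In BMDMs the 5 subunits could also be compared with each other, per transcript length, as TPM (reads divided by length, then scaled to a common total). In untreated WT cells *Nfkb1* was at 49.3 TPM, *Rela* at 47.0, *Nfkb2* at 32.7, *Relb* at 13.5 and *Rel* at 6.86. *Rel* was the lowest in all 6 libraries, and its TPM ran from 3.29 in untreated cKO cells to 36.6 in WT cells with IL-4. *Rela* made up 31.5% of the summed TPM of the 5 genes in untreated WT cells, 18.3% with LPS and 9.79% with IL-4. After LPS *Nfkb2* led the 5 (114 TPM in WT, 151 in cKO), and after IL-4 *Nfkb1* did (329 TPM in WT, 330.3 in cKO). The order at the top changed with treatment while the order was the same in both genotypes, except that *Nfkb1* and *Rela* changed places in untreated cells, where they were within 5 TPM of each other.

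**Figure D2:**
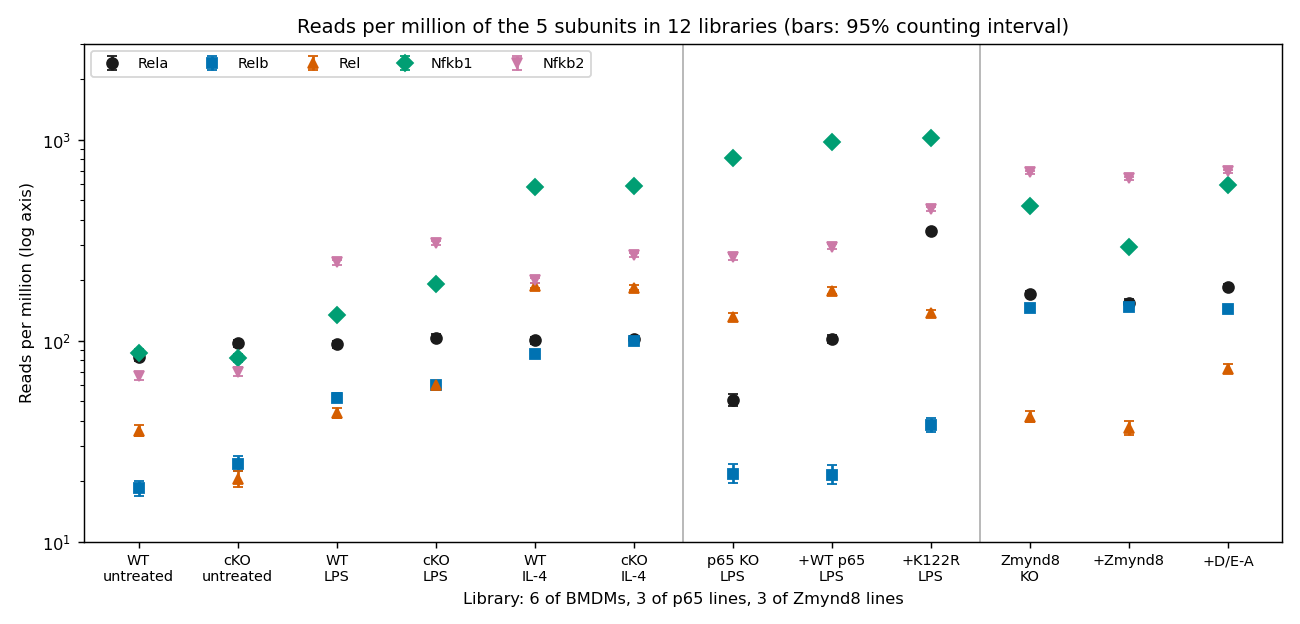
CPM on a log axis (y) for the 5 subunits in each of the 12 libraries (x), with 95% counting intervals as bars and vertical lines between BMDMs, p65 lines and Zmynd8 lines. *Rela* stays between 83.1 and 104 in the 6 BMDM libraries and spans 50.6 to 351 in the p65 lines.

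*Rela* was the steadiest subunit in BMDMs. In CPM it was at 83.1 (WT) and 97.1 (cKO) untreated, at 95.9 and 104 after LPS, and at 100.4 and 102 after IL-4, so that the highest library was 1.25 times the lowest. The same ratio was 5.40 for *Relb*, 9.16 for *Rel*, 7.19 for *Nfkb1* and 4.61 for *Nfkb2*.

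LPS over untreated cells raised 4 subunits in each genotype. Calls in BMDMs needed a 1.2-fold difference and, in addition, a Benjamini-Hochberg adjusted p below 0.05 from the exact binomial test of both libraries' reads. *Nfkb2* went from 66.6 to 246 CPM in WT (3.65-fold, log2 1.87, limits 1.80 to 1.96) and from 70.1 to 307 in cKO (4.34-fold, log2 2.12). *Relb* went from 18.4 to 52.1 in WT (log2 1.45) and from 24.5 to 59.9 in cKO (log2 1.26). *Nfkb1* went from 86.9 to 135 in WT (log2 0.63) and from 81.9 to 191 in cKO (log2 1.21). *Rel* went from 35.7 to 43.7 in WT (log2 0.28, limits 0.16 to 0.42) and from 20.5 to 59.9 in cKO (log2 1.5, limits 1.40 to 1.70). *Rela* was not called in either genotype (log2 0.20 and 0.092). *Nfkb2* thus held the highest log2 ratio in both genotypes and *Rela* the lowest, and *Rel* was lower in cKO than in WT before LPS and higher after it. The treatment ratios of the 2 genotypes were not tested against each other.

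In the WT comparison 4 subunits were called higher and 0 lower, where 20.6% of 12813 genes were called higher and 61.1% lower. In cKO it was 4 and 0 as well, against 23.8% of 12666 genes higher and 58.9% lower. The median log2 ratio of all genes was -0.58 in WT and -0.55 in cKO under scaling by library totals, where higher genes made up 25.2% and 28.8% of the calls. On the deposited TPM that share was 24.5% in WT and 37.5% in cKO. Under median ratio scaling, which centres the ratios by its construction, it was 46.4% and 47.8%. The subunits then stood higher: *Nfkb2* at log2 ratios of 2.47 and 2.69 (WT, cKO), *Relb* at 2.04 and 1.81, *Nfkb1* at 1.23 and 1.78, *Rel* at 0.88 and 2.06, and *Rela*, now past the rule, at 0.81 and 0.66. On the deposited TPM *Rel* was at 0.19 in WT, under the fold rule, and *Rela* at 0.36 in cKO, past it.

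IL-4 over untreated cells gave higher log2 ratios than LPS for *Relb*, *Rel* and *Nfkb1* and lower ones for *Nfkb2*, in both genotypes, except that for *Relb* the order turned under median ratio scaling (LPS 2.04 and IL-4 2.01 in WT, 1.81 and 1.79 in cKO). The untreated library is shared by both comparisons of a genotype. *Nfkb1* reached 583 CPM in WT (6.65-fold over untreated, log2 2.73, limits 2.68 to 2.81) and 588 in cKO (7.11-fold, log2 2.83). *Rel* reached 188 in WT (5.14-fold, log2 2.36) and 184 in cKO (8.59-fold, log2 3.10). *Relb* reached 86.2 and 99.4 (log2 2.17 and 1.98), and *Nfkb2* 199 and 268 (log2 1.57 and 1.92). *Rela* was called in WT (log2 0.27, 1.21-fold, just past the fold rule) and not in cKO (log2 0.070). Counts of subunits called higher were 5 in WT and 4 in cKO, with 0 lower in both, beside 38.6% of 13090 genes higher and 21.7% lower in WT and 42.2% of 12966 genes higher and 24.8% lower in cKO. Under median ratio scaling *Rela* dropped under the rule in WT (log2 0.11) and changed sign in cKO (log2 -0.12), and higher genes made up 49.5% in place of 64.1% of all calls in WT and 50.3% in place of 63% in cKO. On TPM that share was 76.6% in cKO, and *Rela* passed the rule there (log2 0.32). The IL-4 libraries carried 382 and 514 CPM of neutrophil marker RNA beside these values, with *Ngp* at 102 and 126 and *Mpo* at 25 and 31.6. Its part in the subunit levels was not tested, and in bulk samples more cells of a type and more RNA per cell cannot be told apart. The IL-4 libraries also carry sample numbers in their titles from another range than the other 4 BMDM libraries.

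**Figure D3:**
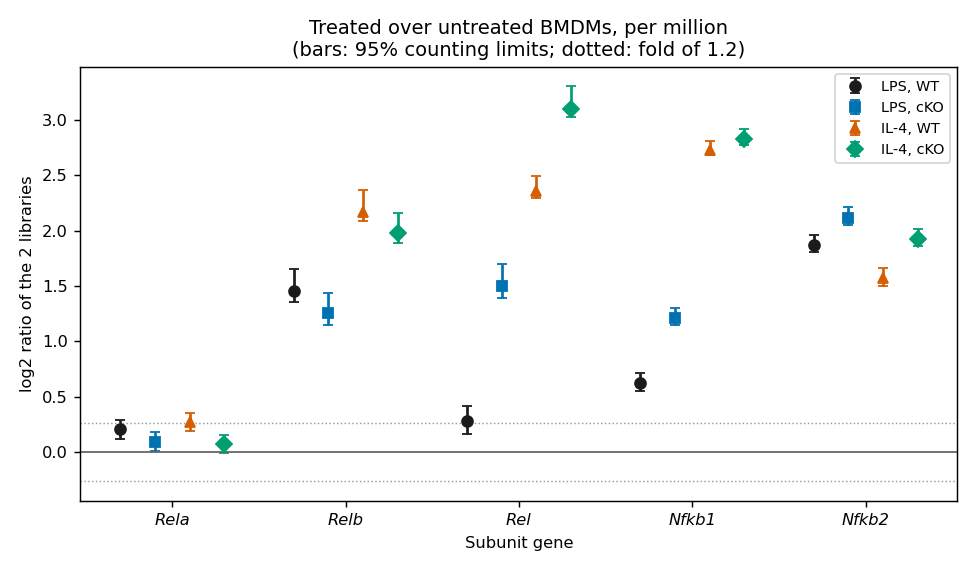
Log2 ratio of treated over untreated BMDMs in CPM (y axis) for each subunit gene (x axis), for LPS and IL-4 in WT and cKO cells, with 95% counting limits as bars and a 1.2-fold change as dotted lines. *Rela* lies at 0.070 to 0.27 in all 4 comparisons and *Rel* in cKO cells with IL-4 is the highest point, at 3.10.

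After LPS, 18 of 20 NF-κB target genes were called higher and 1 lower in each genotype (median log2 3.79 in WT and 4.30 in cKO). Over all lists, the named genes in WT were *Nos2* (from 229 to 186078 reads), *Saa3* (log2 7.93), the chemokines *Cxcl10* (log2 6.76) and *Ccl5* (log2 6.43), *Ptgs2*, the inducible cyclooxygenase (log2 6.52), and *Cd40*, a receptor of the non-canonical list (log2 5.74). In cKO the same rule named *Nos2* (log2 10.46), *Cxcl10* (log2 8.31), *Ptgs2* (log2 7.99), *Saa3* (log2 7.64), *Ccl5* (log2 7.57) and *Il1b* (log2 6.20). The IκB genes had 5 of 6 called higher in each genotype (median log2 2.24 and 2.47), with 0 lower in WT and 1 lower in cKO.

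After IL-4 the target genes were split in WT, with 8 called higher and 6 lower of 18 tested (median log2 0.19, against 0.15 for all genes), while in cKO 16 of 20 were called higher and 3 lower (median log2 1.91, against 0.17). Over all lists, *Ccl2* fell in WT from 245 to 12.8 CPM, and *Icam1*, an adhesion molecule (log2 3.44), *Ptgs2* (log2 3.18), *Cd40* (log2 3.17), *Birc3*, the ubiquitin ligase cIAP2 (log2 2.99), and *Bcl2a1b*, of the BCL2 family (log2 2.72), were higher. In cKO the named genes were *Ptgs2* (log2 4.82), *Cd40* (log2 4.36), *Il1b* (log2 4.11), *Icam1* (log2 3.94), *Cxcl2* (log2 3.54) and *Birc3* (log2 3.39), all higher. The non-canonical list had 6 of 8 called higher in WT (median log2 1.17) and 7 of 8 in cKO (median log2 1.5), with 0 lower in both, and after LPS 3 higher and 1 lower in WT (median log2 -0.0050) and 5 higher and 3 lower in cKO (median log2 0.72). With IL-4, 6 of 6 IκB genes were called higher in WT and 5 of 6 in cKO. The IKK list had 2 higher and 6 lower (LPS, WT), 3 and 3 (LPS, cKO), 6 and 0 (IL-4, WT) and 8 and 0 (IL-4, cKO). The feedback list had 3 and 1, 4 and 1, 4 and 0, and 4 and 1 in that order, and the acetylation list 2 and 6, 5 and 3, 3 and 3, and 4 and 2. Over all genes the shares called higher and lower were 20.6% and 61.1%, 23.8% and 58.9%, 38.6% and 21.7%, and 42.2% and 24.8% in the same order.

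Between genotypes, *Rel* passed the rule in untreated and LPS cells, *Relb* in untreated cells, *Nfkb1* in LPS cells and *Nfkb2* in LPS and IL-4 cells. In untreated cells *Rel* was lower in cKO (20.5 against 35.7 CPM, log2 -0.77, limits -0.97 to -0.64) and *Relb* higher (24.5 against 18.4, log2 0.39, limits 0.23 to 0.59). Thus 1 subunit was called higher and 1 lower, among 12463 genes of which 21.7% were called higher and 25.9% lower. *Rela* (log2 0.22), *Nfkb1* (log2 -0.085) and *Nfkb2* (log2 0.071) were not called. On the deposited TPM, where the median of all genes moved from -0.014 to -0.20, *Relb* was no longer past the fold rule (log2 0.12), *Rela* and *Nfkb2* changed sign (log2 -0.033 and -0.18) and higher genes made up 22.0% in place of 45.5% of all calls, while *Rel* stayed lower (log2 -0.87). Other genes moved beside *Rel*. Of the 10 macrophage markers, 2 were called higher and 6 lower in untreated cKO cells (median log2 -0.45), and after LPS 3 were called higher and 3 lower (median log2 -0.11). The markers did not move as 1 group. Like *Rel*, 3 of the 10 (*Adgre1*, *Itgam*, *Ptprc*) had a lower CPM in cKO before LPS and a higher one after it, 3 (*Cd14*, *Cd68*, *Spi1*) ran the opposite way, and 4 (*Csf1r*, *Fcgr1*, *Lyz2*, *Mertk*) were at a lower CPM in cKO both times. *Itgam* was at 522 in cKO against 859.8 in WT untreated and at 749.6 against 474 after LPS, *Cd14* at 452 against 223 and at 189 against 252, and *Lyz2* at 7202 against 10950.5 and at 2892 against 6902. Cre is driven from *Lyz2* in cKO cells only, so *Lyz2* differs by genotype in design, and the part of the Cre allele in its level was not tested. *Xist* ran like *Rel*, at 323 in cKO against 739.7 in WT untreated and at 429 against 246 after LPS. The part of these shifts in the *Rel* values was not tested.

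After LPS, 3 subunits were called higher in cKO and 0 lower (17.1% of 12386 genes higher, 8.76% lower). *Nfkb1* was at 191 against 135 CPM (1.42-fold, log2 0.50, limits 0.44 to 0.57), *Rel* at 59.9 against 43.7 (1.36-fold, log2 0.45, limits 0.34 to 0.57) and *Nfkb2* at 307 against 246 (1.25-fold, log2 0.32, limits 0.27 to 0.37). *Relb* (log2 0.20) and *Rela* (log2 0.11) stayed under the fold rule, though *Relb* passed it on TPM (log2 0.31). All 5 were thus on the cKO side, and under median ratio scaling the same 3 passed, with log2 ratios of 0.45, 0.39 and 0.27 in the same order, and higher genes made up 52.9% in place of 66.1% of the calls. After IL-4, only *Nfkb2* was called, higher in cKO (268 against 199, log2 0.43, limits 0.38 to 0.48), as 1 higher and 0 lower against 13.8% of 13245 genes higher and 10.5% lower. *Relb* was at 0.20, *Rela* at 0.023, *Nfkb1* at 0.013 and *Rel* at -0.032.

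**Figure D4:**
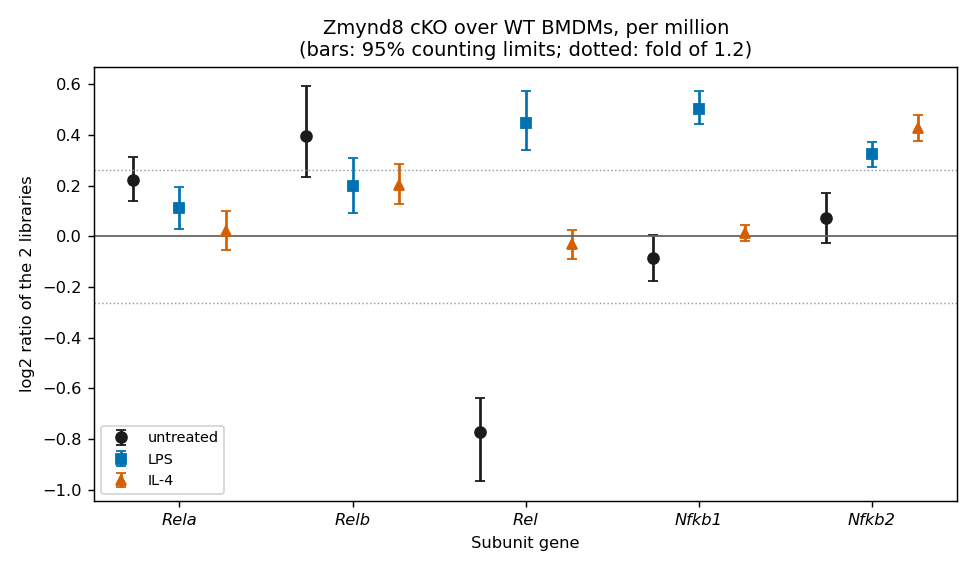
Log2 ratio of cKO over WT BMDMs in CPM (y axis) for each subunit gene (x axis) in untreated, LPS and IL-4 cells, with 95% counting limits as bars and a 1.2-fold change as dotted lines. *Rel* runs from -0.77 in untreated cells to 0.45 after LPS, and *Nfkb2* lies above the dotted line after LPS and after IL-4.

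Of the NF-κB target genes, 3 were called higher and 5 lower of 18 tested in untreated cKO over WT cells, near the shares of all genes (21.7% and 25.9%), and their median log2 ratio of -0.018 was near that of all genes (-0.014). Over all lists, the named genes were *Cxcl10* (log2 -1.45), *Ccl5* (log2 -1.23), *Nos2* (log2 -0.89) and the acetyltransferase *Ep300*, p300 (log2 -0.89), on the low side and *Ccl2* (log2 0.91) and the chemokine *Ccl3* (log2 0.72) on the high side. After LPS 10 of 20 target genes were called higher and 1 lower (median log2 0.26, against 0.034 for all genes), led by *Il12b* (27.6 in cKO against 8.67 CPM in WT, log2 1.56), *Il1b* (log2 1.42), *Ptgs2* (log2 1.19), *Tnf* (log2 0.66), *Il6* (log2 0.64) and *Il1a* (log2 0.63). After IL-4 all 20 target genes were called higher (median log2 1.47, against 0.0090 for all genes), with *Ccl2* (log2 2.35), *Cxcl10* (log2 2.09), *Cxcl1* (log2 1.93), *Nos2* (log2 1.87), *Ccl5* (log2 1.72) and *Ccl3* (log2 1.71) in front. The neutrophil marker sum was 514 in cKO and 382 in WT there, and its part was not tested. In the order untreated, LPS and IL-4, the IκB genes had 2 higher and 1 lower, 2 and 0, and 5 and 0. The IKK list had 0 higher and 4 lower, 3 and 0, and 1 and 0, and the non-canonical list 0 and 4, 3 and 0, and 2 and 0. For the feedback list it was 2 and 2, 2 and 0, and 2 and 0, and for the acetylation list 0 and 5, 4 and 0, and 1 and 1. In the same order, 21.7%, 17.1% and 13.8% of all genes were called higher and 25.9%, 8.76% and 10.5% lower, and several of these counts, such as 1 of 8 IKK genes higher after IL-4, lie near those shares.

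In the Zmynd8 lines, *Nfkb1* and *Rel* differed most. In CPM (KO, WT Zmynd8, D/E-A), *Nfkb1* was at 469, 294 and 595, *Rel* at 41.9, 36.9 and 72.6, *Rela* at 172, 155 and 186, *Relb* at 145, 147 and 144, and *Nfkb2* at 688, 643 and 698. WT Zmynd8 was the lowest and D/E-A the highest of the 3 libraries for all but *Relb*, though the intervals of KO and D/E-A overlapped for *Nfkb2*, and those of KO and WT Zmynd8 for *Rel*. In D/E-A over WT Zmynd8, on the deposited values, *Nfkb1* was 2.07-fold higher (log2 1.05, limits 1.00 to 1.10), *Rel* 2.01-fold (log2 1.01, limits 0.87 to 1.14) and *Rela* 1.23-fold (log2 0.30, limits 0.22 to 0.37), while *Nfkb2* (log2 0.15) and *Relb* (log2 -0.0071) were not called. In CPM *Rela* fell under the rule (log2 0.26). These were 3 higher and 0 lower calls, against 36.7% of 12771 genes called higher and 35.9% lower, in a table whose genes all have 21 or more WT Zmynd8 reads. In Zmynd8 KO over WT Zmynd8, *Nfkb1* alone was called, 1.68-fold higher (log2 0.75, limits 0.70 to 0.80), as 1 higher and 0 lower against 33.8% of 21302 genes higher and 36.5% lower. *Rel* was at 0.26, *Rela* at 0.22, *Nfkb2* at 0.17 and *Relb* at 0.048 on the log2 scale.

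Macrophage and neutrophil markers moved beside these values. The summed neutrophil markers were at 6960 (KO), 10340 (WT Zmynd8) and 4419 (D/E-A) CPM, with *S100a8* at 1622, 2709 and 969, and the summed macrophage markers at 7715, 5963 and 10890, with *Adgre1* at 651, 336 and 886 and *Csf1r* at 433, 302 and 729. In CPM, *Nfkb1*, *Rel*, *Rela* and *Nfkb2* thus rank with the macrophage sum and against the neutrophil sum over the 3 libraries, but on the deposited values *Nfkb2* had a higher log2 ratio to WT Zmynd8 in KO (0.17) than in D/E-A (0.15). The order of the macrophage sum held for 8 of its 10 genes (not *Cd68* at 331, 275 and 328 or *Spi1* at 893, 724 and 808), and that of the neutrophil sum for 6 of 7 (not *Mpo* at 114, 104 and 73.2). The other marker sums followed neither order. In CPM (KO, WT Zmynd8, D/E-A) they were at 119, 161 and 155 for B cells, 18.2, 20.6 and 19.5 for T cells, and 37.4, 36.4 and 23.9 for dendritic cells. The part of cell make-up in the subunit values was not tested. Target genes had 9 higher and 8 lower calls in D/E-A (median log2 0.085, against 0.015 for all genes) and 8 higher and 4 lower in the knockout (median log2 0.14, against -0.026). *Nos2* (log2 2.48), *Tnfaip3* (log2 1.40), *Ptgs2* (log2 1.36) and the acetyltransferases *Ep300* (log2 1.32) and *Kat2b*, PCAF (log2 1.27), were higher in D/E-A, and *Cxcl1* was lower (log2 -1.87). In the knockout *Nos2* (log2 1.34), *Tnfaip3* (log2 0.95), *Ccl2* (log2 0.92), the kinase gene *Chuk*, IKKα (log2 0.75), *Kat2b* (log2 0.74) and *Ptgs2* (log2 0.71) were higher. Higher and lower calls (D/E-A, then knockout) were 3 and 3, then 3 and 2 for the IκB genes, 4 and 2, then 4 and 1 for the IKK list, 4 and 0 in both for the non-canonical list, 3 and 1, then 3 and 0 for the feedback list, and 6 and 0, then 6 and 2 for the acetylation list. Of all genes 36.7% were called higher and 35.9% lower in D/E-A, and 33.8% and 36.5% in the knockout, so the target gene counts in D/E-A lie near those of all genes, and nothing is read from the smaller lists.

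**Figure D5:**
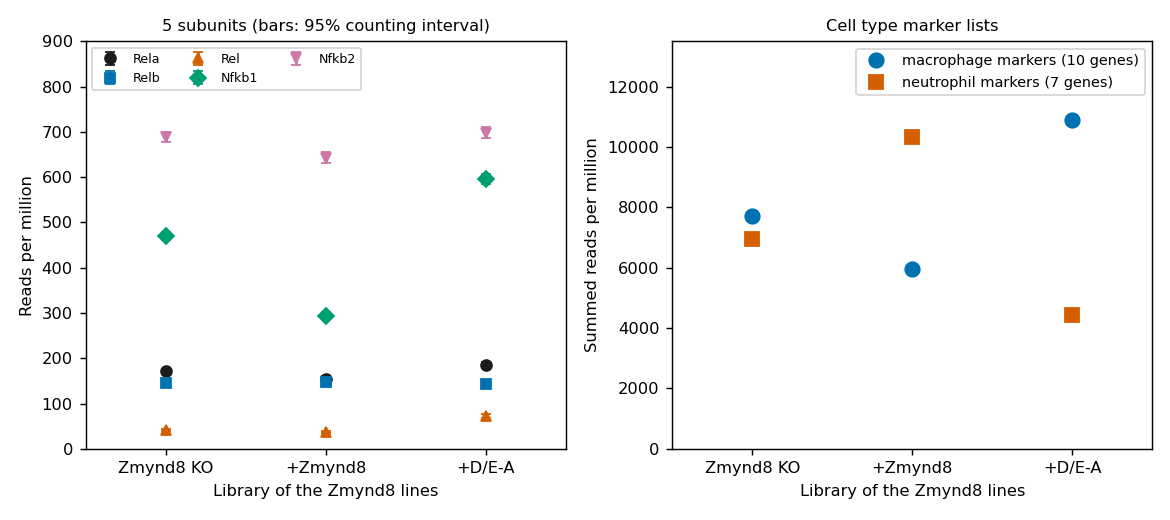
CPM of the 5 subunits with 95% counting intervals (left, y axis from 0) and summed CPM of 10 macrophage and 7 neutrophil markers (right, y axis from 0) in the 3 libraries of the Zmynd8 lines (x). *Nfkb1* and the macrophage markers are lowest in WT Zmynd8 and highest in D/E-A, and the neutrophil markers run the other way.

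The levels in the p65 and the Zmynd8 lines did not overlap for *Relb*, *Nfkb2*, *Nfkb1* and *Rel*. The share of all genes without overlap was not computed, so nothing particular to the subunits is read from this. In CPM *Relb* ran from 21.6 to 37.9 in the p65 lines and from 144 to 147 in the Zmynd8 lines, and *Nfkb2* from 261 to 452 and from 643 to 698. *Nfkb1* ran from 809 to 1027 and from 294 to 595, and *Rel* from 131 to 177 and from 36.9 to 72.6. *Relb* and *Nfkb2* were thus higher in the Zmynd8 lines, *Nfkb1* and *Rel* higher in the p65 lines, and *Rela* (50.6 to 351 and 155 to 186) overlapped. The labels give LPS for the p65 lines only, while the study's text gives it for the WT Zmynd8 and D/E-A cells too. The tables were normalized separately, the cell make-up differs as described, and no test was made.

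Over the 12 libraries, with log2 CPM centred within BMDMs and within Raw264.7 libraries, *Nfkb1* and *Rel* were the most alike pair of subunits (Pearson r = 0.97), followed by *Relb* and *Nfkb2* (r = 0.86), and *Rela* was at most at 0.43 with any other. Among 9439 genes with a mean of at least 100 reads, the genes most like *Nfkb1* were *Adam17* (r = 0.99), *Rassf4* and *Rel* (both 0.97). Those most like *Rel* were *Fnbp1l* (0.99), *Rassf4* and *Htt* (both 0.97). For *Nfkb2* they were *Tnip1* (0.98), *Slc2a6* (0.98) and *Mtmr14* (0.97), for *Relb* *Tctn1* (0.98), *Pik3r6* (0.98) and *H2-Q5* (0.97), and for *Rela* *Ptgir* (0.80), *Syne2* (0.77) and *Abr* (0.75). The 12 libraries fall into sets by cell and treatment, so these values are a description with no p.

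The promoters show where the letters of a κB site occur near the starts of subunit genes. RefSeq promoters of 300 bases (250 before the start and 50 after it, GRCm38.p6) were at hand for *Rel*, *Rela* and *Nfkb2*, the last with 3 starts, and not for *Relb* and *Nfkb1*. The letters searched were GGGNNNTTCC, on both strands, where N is any base. No stretch of 10 bases can match on both strands. A match was found in 5.56% of the 32851 promoters of the table. *Nfkb2* held 2 matches in the promoter of its leftmost start, 38 and 11 bases before the start, and the other starts, whose windows overlap, share 1 match, with 1 more in the nearer window. *Rel* held 1 at 91 bases before its start, and *Rela* held 0. The promoters are given with matches in capitals, *Nfkb2* as a gene called higher after LPS in both genotypes and *Rela* as the gene not called in either in CPM. Under median ratio scaling *Rela* passed the rule in both, so the promoters are not read against the calls.
Nfkb2, chr19:46304487-46304786, + strand: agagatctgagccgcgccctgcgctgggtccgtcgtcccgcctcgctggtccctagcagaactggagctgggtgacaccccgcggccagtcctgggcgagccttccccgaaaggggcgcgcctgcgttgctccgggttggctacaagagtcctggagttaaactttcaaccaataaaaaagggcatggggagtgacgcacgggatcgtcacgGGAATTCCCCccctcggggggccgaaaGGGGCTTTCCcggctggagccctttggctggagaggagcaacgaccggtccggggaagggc
Rel, chr11:23770920-23771219, - strand: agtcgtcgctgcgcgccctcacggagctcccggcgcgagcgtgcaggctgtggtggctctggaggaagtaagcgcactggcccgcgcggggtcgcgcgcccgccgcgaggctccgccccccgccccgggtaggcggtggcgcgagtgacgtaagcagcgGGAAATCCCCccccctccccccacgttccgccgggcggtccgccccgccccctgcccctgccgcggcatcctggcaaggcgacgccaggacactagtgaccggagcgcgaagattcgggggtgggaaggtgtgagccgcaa
Rela, chr19:5637291-5637590, + strand: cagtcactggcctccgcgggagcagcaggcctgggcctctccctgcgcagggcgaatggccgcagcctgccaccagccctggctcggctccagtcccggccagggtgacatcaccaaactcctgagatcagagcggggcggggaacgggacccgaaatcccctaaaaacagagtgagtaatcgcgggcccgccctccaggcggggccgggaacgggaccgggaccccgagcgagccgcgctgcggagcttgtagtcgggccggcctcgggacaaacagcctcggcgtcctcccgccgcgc
A match is a description of these letters only, and no match says only that they are not in this window.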

How the data were processed

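Expression of the 5 genes was read from 12 RNA-seq libraries, 6 of BMDMs and 6 labelled Raw264.7. Per the study's methods, the authors used TopHat and mm10 for alignment. The BMDM tables they deposited hold estimated counts per gene, not normalized, and TPM. Gene entries without an Ensembl ID (431 in the untreated and LPS tables, 2 in the IL-4 table) held 0 counts and were dropped. The Raw264.7 tables that the authors deposited hold a signal per gene, normalized within each table. Dividing by a factor per library gave whole reads (tolerance 0.05 reads) for every gene but *Zmynd8* in the Zmynd8 KO library, and these reads gave the depths and limits. The authors' log2 fold changes and p-values were not used, nor were 7 columns without titles in 2 tables.

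Estimated counts were rounded and scaled to the library total (CPM). The log2 ratio of 2 libraries was taken with a pseudocount of 1, on CPM for BMDMs (mean count 10 or more) and on the deposited values for Raw264.7 (mean value of at least 1). A call in BMDMs needed a 1.2-fold difference and a two-sided exact binomial p, Benjamini-Hochberg adjusted over all genes tested, below 0.05 (scipy 1.17.1). Raw264.7 genes were called on the fold alone, since the deposited values are not counts. K122R over p65 KO, which spans 2 tables, used the recovered reads as CPM, with a mean of at least 1 CPM. That floor is higher than a deposited value of 1, which is about 1 read, so its shares over all genes rest on a stricter set of genes. Limits are 95% Clopper-Pearson limits on the reads without a pseudocount and cover counting error only, since reads without molecular identifiers are not independent molecules. The script was tested on simulated data. Named beside the 5 members were at most 6 list genes per comparison, those with the largest absolute log2 ratio among called genes, and the 3 genes most alike to each member. *Arg1* was added as a check after its values were seen. Members and lists were chosen with earlier results of these data known. Alternatives were a fold of 2, a pseudocount of 0.1, no filter, other scalings, TPM and other call rules. Coordinates follow the deposited tables (mm10) and GENCODE on GRCm38, and promoters are those of RefSeq.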

Additional observations from a re-analysis of the deposited data

Results flagged for a closer look

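The difference in *Rel* between genotypes turned sign between untreated and LPS cells. *Rel* was lower in cKO than in WT in untreated BMDMs (log2 -0.77) and higher in cKO after LPS (log2 0.45). The difference between these effects was not tested, since each condition has 1 library.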

How the results depend on the processing

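Each of the 12 comparisons was recomputed under 5 or 6 alternatives. Among log2 ratios of single subunits, 301 kept their sign and their side of the rule, 22 dropped under it, 6 passed it and 6 changed sign. Dropping the filter, a fold of 2 and other call rules cannot alter a log2 ratio. The 301 thus include settings that could not move a value, and all 6 sign changes came from other scalings or TPM. The sign changed for *Rela* (-0.033) and *Nfkb2* (-0.18) on TPM in untreated cKO over WT cells, for *Rela* on TPM (-0.0042) and *Nfkb1* under median ratio scaling (-0.0058) in cKO over WT cells with IL-4, for *Rela* with IL-4 over untreated cKO cells under median ratio scaling (-0.12), and for *Relb* in Zmynd8 KO over WT Zmynd8 on CPM (-0.025), and none of these 6 was called in the report. The cause was not tested. Among counts of called subunits, 58 stayed within 1.5 times and 9 did not. With a fold change of at least 2 the count was 0 for cKO over WT in untreated, LPS and IL-4 cells and 0 for Zmynd8 KO over WT Zmynd8, 2 for LPS over untreated WT cells, and 1 each for p65 KO over WT p65, K122R over WT p65 and K122R over p65 KO, that 1 being *Rela*. On TPM it was 1 for cKO over WT in untreated cells. For K122R over p65 KO, scaling to library totals is the scaling reported, so it was not run as an alternative. No replicate could be left out with 1 library per condition. No paired analysis was possible because every group has 1 library. The fewest reads of any subunit were those of *Relb* in p65 KO (330) and WT p65 (338).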

Other observations

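The genes beside *Rela* on chromosome 19 were looked at after the *Rela* values were seen, taking the 2 nearest protein-coding genes on each side with a mean value of at least 100. In K122R over WT p65 the log2 ratio was 0.50 for *Ap5b1*, 0.48 for *Kat5*, which encodes the acetyltransferase TIP60, 0.20 for *Sipa1* and 0.24 for *Pcnx3*, against 1.92 for *Rela*, and *Ap5b1* and *Kat5* passed the fold rule. In p65 KO over WT p65 they were at 0.39, 0.037, 0.22 and 0.087, against -1.02 for *Rela*, and *Ap5b1* passed it. In K122R over p65 KO they were at -0.039, 0.29, -0.16 and 0.0039, against 2.77 for *Rela*, and *Kat5* passed it.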
